A study of Homo sapiens with 27 samples.

Results

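The genes described here encode the machinery of DNA replication and the cyclin E and E2F proteins of the G1/S transition. They were chosen by name, with earlier results of these data known. Of 56 gene symbols listed, 55 had a row among the 20268 protein-coding gene symbols of the count table. UHRF1 had no row, so its RNA was not analysed, and it enters only the promoter search below. The RNA came from 3 prostate cancer cell lines, of which LNCaP is hormone-sensitive and LNCaP95 and 22Rv1 are hormone-insensitive. Each line had been infected with lentivirus for a non-targeting hairpin (CTRL sh) or for one of the 2 hairpins against CPSF1, named CPSF1 sh1 and CPSF1 sh2, and selected with puromycin. All 27 libraries thus come from infected and selected cells, in 9 groups of 3 replicates that the study's methods call biological. LNCaP and 22Rv1 cells were grown in RPMI medium, and LNCaP95 cells in medium without phenol red, both with 10% serum, so that LNCaP95 cells and their medium cannot be told apart in comparisons with the other lines. The knockdown is a stable one in whole cultures, and no cell cycle stage was selected. In such bulk RNA, fewer cells in a stage and less RNA per cell cannot be told apart.

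Before S phase, the origin recognition complex (ORC1 to ORC6), CDC6 and CDT1 load the MCM2-7 helicase onto origins, and geminin (GMNN) holds CDT1 back. MCM10, CDC45 and the GINS complex turn the loaded helicase into a moving one, DNA polymerases copy the strands with primase, PCNA, the RFC clamp loader and RPA, and FEN1 and LIG1 finish the lagging strand. Most of these genes are known targets of E2F transcription factors, which are released from RB proteins when cyclin-dependent kinases, among them those with cyclin E, become active.

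The E2F binding motif links many of the members, so a stretch of promoter around it is shown for 6 members whose values are described below. The motif was searched in the RefSeq promoter windows of GRCh38.p14, 250 bases before to 50 after each start, as the words TTTCCCGC, TTTCGCGC, TTTGCCGC and TTTGGCGC on either strand. The count table itself uses GRCh37, and no coordinates were converted. Of the 49 members with a window, UHRF1 among them, 25 held at least 1 of these words (51.0%). The share was 3.99% over all genes with a window (1090 of 27305) and 12.5% over the G2/M genes (3 of 24). The 27305 were all gene symbols with a RefSeq window, not limited to those of the count table or to expressed genes. Each stretch has 30 bases, written 5′ to 3′ on the strand of the gene, with the word or its reverse complement in capitals. CLSPN and MCM3 are on the minus strand, as are E2F1 and PCNA, and MCM2 and CDC6 on the plus strand.
CLSPN, chr1:35769965-35769994: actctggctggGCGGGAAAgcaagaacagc
MCM3, chr6:52284728-52284757: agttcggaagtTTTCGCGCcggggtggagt
MCM2, chr3:127598402-127598431: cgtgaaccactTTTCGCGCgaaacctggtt
CDC6, chr17:40287875-40287904: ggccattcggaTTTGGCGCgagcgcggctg
E2F1, chr20:33686387-33686416: ggcaaaaaggaTTTGGCGCgtaaaagtggc
PCNA, chr20:5126663-5126692: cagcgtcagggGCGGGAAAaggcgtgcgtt
The words TTTCGCGC and TTTGGCGC can overlap their own reverse complements, as in the MCM2 stretch, where the following bases complete a copy on the other strand. A match is a description of these letters and not of binding.

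CPSF1, the largest subunit of the cleavage and polyadenylation specificity factor and the target of the hairpins, was lower in each of the 6 CPSF1 sh libraries than in the 3 CTRL sh libraries of every line. In LNCaP cells its level was 150.3, 149.7 and 152 counts per 1000000 (CPM, scaled by TMM within a line) with CTRL sh, 108, 94.4 and 100.3 CPM with CPSF1 sh1 and 98.2, 89.6 and 86.2 CPM with CPSF1 sh2. In LNCaP95 cells CPSF1 was at 128, 97.0 and 117 CPM with CTRL sh, 68.2, 57.1 and 58.7 CPM with CPSF1 sh1 and 61.7, 63.9 and 58.8 CPM with CPSF1 sh2. The 22Rv1 libraries had CPSF1 at 189, 182 and 182 CPM with CTRL sh, 111, 135 and 137 CPM with CPSF1 sh1 and 126, 141 and 133 CPM with CPSF1 sh2. The log2 fold changes were -0.65 ± 0.06 (SE), -0.89 ± 0.08 and -0.50 ± 0.06 in LNCaP, LNCaP95 and 22Rv1 cells, so the knockdown was partial and unequal in size among the lines. Libraries held 8515624 to 15904518 counts, of which the members took 0.452 to 0.517% in LNCaP, 0.364 to 0.580% in LNCaP95 and 0.786 to 0.856% in 22Rv1 cells. In 22Rv1 cells CPSF1 sh1 replicate 3 stood apart from its group, with a chi-square per degree of freedom of 7.31 and 4.56 against the other two, where the other replicate pairs of that line had 1.39 to 1.97. The CTRL sh pairs of LNCaP95 cells had 5.22 (replicates 1 and 2), 2.87 and 2.97, the highest values among the CTRL sh groups. The 8 luminal prostate markers reported here, KLK3 among them, were above 2 CPM in each library, and the basal markers KRT5, KRT14 and TP63 were each below it in at least 1 library of each line, with a sum of at most 6.29 CPM. The summed level of the luminal markers was 4429 to 4490.2 CPM with CTRL sh and 3397 to 3632 CPM with CPSF1 sh in LNCaP cells, 5454 to 5645 against 3566 to 3788 CPM in LNCaP95 cells and 1709 to 1742 against 1587 to 1844 CPM in 22Rv1 cells, and its part in the results was not tested. Of 4 leukocyte markers PTPRC, CD3E and CD79A stayed below 2 CPM in at least 1 library of each line, and CD68, a lysosomal protein, went from a mean of 3.26 to 13.8 CPM in LNCaP and from 8.03 to 25.4 CPM in LNCaP95 cells. The neuroendocrine markers CHGA, SYP and INSM1 summed to at most 6.13 CPM in LNCaP and LNCaP95 cells. In 22Rv1 cells their sum was 78.8 to 86.1 CPM with CTRL sh and 61.9 to 74.4 CPM with CPSF1 sh. Fibroblast markers summed to 26.1 to 31.2 CPM in LNCaP, 56.2 to 73.1 in LNCaP95 and 13.2 to 16.4 in 22Rv1 cells with CTRL sh. With CPSF1 sh these sums were 17.8 to 20.7, 44.6 to 59.1 and 13.1 to 17.5 CPM.

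Without knockdown the members were expressed at different levels in the 3 lines. Per kilobase of exon and 1000000 counts (RPKM, scaled over all 27 libraries), the median over the members with CTRL sh was 37.2 in 22Rv1, 16.9 in LNCaP and 12.6 in LNCaP95 cells. Between the CTRL sh groups, the edgeR quasi-likelihood test (Benjamini-Hochberg adjusted p under 0.05) called 49 of 55 members higher and 3 lower in 22Rv1 than in LNCaP cells, where 41.1% of all genes tested were called higher and 41.4% lower. Against LNCaP95, 50 members were higher and 4 lower in 22Rv1 cells, beside 42.2% and 42.1% of all genes. LNCaP95 cells had 42 members lower and 10 higher than LNCaP cells, beside 39.3% and 41.0% of all genes. The 10 that were higher in LNCaP95 cells were ORC2, ORC3, RFC1, RFC4, RFC5, LIG1, RRM1 and the 3 RPA subunits, which coat single-stranded DNA. MCM4 had the largest ratio between lines within the MCM2-7 helicase, at 104 ± 1.74 RPKM (SD, n = 3) in 22Rv1, 44.6 ± 1.29 in LNCaP and 14.7 ± 1.01 in LNCaP95 cells.

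PCNA, the sliding clamp, MCM7 and POLD2, a subunit of DNA polymerase delta, had the highest levels over the CTRL sh libraries. PCNA was at 223 ± 12.4 RPKM in 22Rv1, 137 ± 4.25 in LNCaP and 76.1 ± 4.42 in LNCaP95 cells (SD, n = 3). MCM7 was at 228 ± 6.82, 80.3 ± 2.04 and 75.4 ± 2.53 RPKM in the same order, so that PCNA and MCM7 differed by less than their spread in 22Rv1 and LNCaP95 cells but not in LNCaP cells. POLD2 varied less between lines, at 117 ± 1.33 RPKM in 22Rv1, 129 ± 3.09 in LNCaP and 103 ± 4.24 in LNCaP95 cells. The lowest levels over these libraries were those of ORC4, GINS4 and CLSPN. ORC4 ran against most members, at 3.53 ± 0.19 RPKM in 22Rv1, 6.58 ± 0.13 in LNCaP and 5.77 ± 0.22 in LNCaP95 cells. GINS4 was at 9.30 ± 0.60, 5.26 ± 0.26 and 3.34 ± 0.55 RPKM in that order. CLSPN, which encodes claspin, an adaptor that passes the replication stress signal from ATR to CHK1, was at 12.3 ± 0.67 RPKM in 22Rv1, 4.83 ± 0.26 in LNCaP and 1.81 ± 0.23 in LNCaP95 cells.

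**Figure D1:**
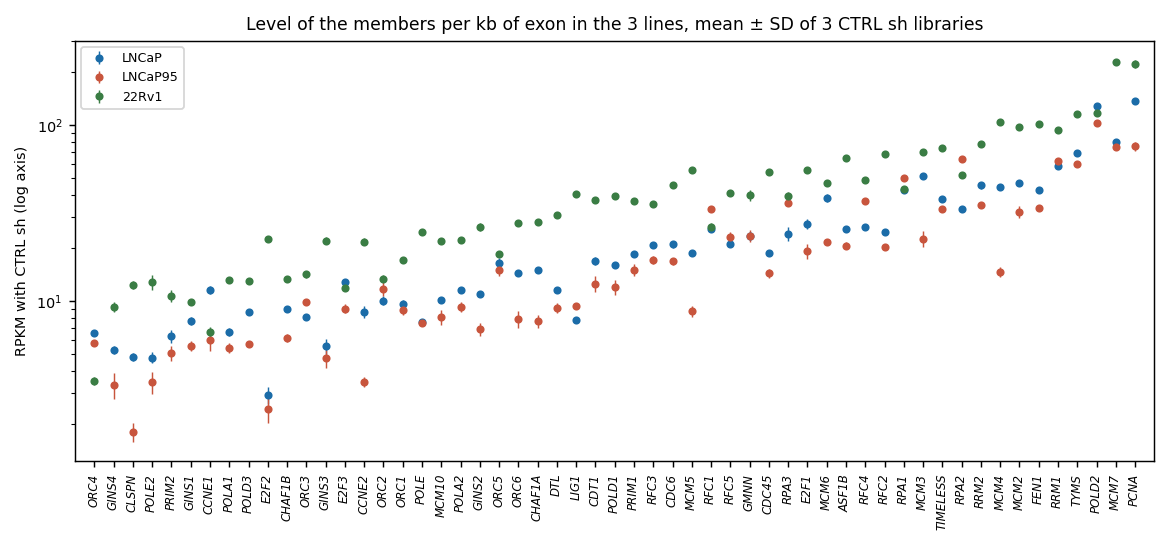
Level of each member in RPKM (log axis) with CTRL sh in LNCaP (blue), LNCaP95 (red) and 22Rv1 cells (green), as the mean ± SD of 3 libraries, with members ordered by their mean over the lines. Most green points lie above the blue and red ones, with ORC4, CCNE1 and POLD2 among those where the LNCaP point is higher.

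Knockdown of CPSF1 in LNCaP95 cells went with higher levels of most of the replication and G1/S genes. Of the 55 members, 44 were higher with CPSF1 sh than with CTRL sh, 2 were lower and 9 were not called, where 33.2% of all 11143 genes tested were called higher and 33.7% lower (6 against 3 libraries, edgeR quasi-likelihood test, Benjamini-Hochberg adjusted). The median log2 fold change was 0.48 over the members and 0.00 over all genes tested. In 42 members all 6 CPSF1 sh libraries lay above the 3 CTRL sh libraries, which held for 29.8% of all genes. The rise exceeded 2-fold in 5 members, namely CLSPN, CCNE2, CCNE1, MCM3 and E2F2. All members passed the filter on low counts in each line, so none was kept by a high level in one group alone.

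The largest rise was that of CLSPN, which lies at chr1:36185819-36235568 on the minus strand of GRCh37. Its level in LNCaP95 cells was 8.03, 9.70 and 10.4 CPM with CTRL sh, 27.1, 31.2 and 31.1 CPM with CPSF1 sh1 and 42.1, 41.4 and 42.7 CPM with CPSF1 sh2. The 3 groups did not overlap, and the log2 fold change was 1.94 ± 0.17 (adjusted p = 1.45e-06). The promoter word of CLSPN shown above, in reverse complement, starts 5 bases before its start site.

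All 5 genes of the cyclin E and E2F group rose in LNCaP95 cells, with a median log2 fold change of 1.10. CCNE2, one of the 2 cyclin E genes, was at 11.9, 13.7 and 13.2 CPM with CTRL sh, 26.7, 28.5 and 32.0 CPM with CPSF1 sh1 and 38.9, 39.6 and 38.1 CPM with CPSF1 sh2, a log2 fold change of 1.39 ± 0.14 (adjusted p = 4.27e-06). CCNE1, the other, was at 10.4, 13.4 and 13.5 CPM with CTRL sh, 24.8, 25.4 and 27.7 CPM with CPSF1 sh1 and 32.5, 27.9 and 33.4 CPM with CPSF1 sh2, a log2 fold change of 1.20 ± 0.13 (adjusted p = 4.36e-06). No CPSF1 sh library of either cyclin came near its CTRL sh libraries. Of the activating E2F factors, E2F2 changed by 1.10 ± 0.16, E2F1 by 0.84 ± 0.09 and E2F3 by 0.67 ± 0.09 on the log2 scale. E2F1 was at 46.3, 43.8 and 52.6 CPM with CTRL sh, 77.6, 73.4 and 81.8 CPM with CPSF1 sh1 and 87.9, 91.3 and 97.9 CPM with CPSF1 sh2.

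The 6 subunits of the MCM2-7 helicase all rose in LNCaP95 cells, with a median log2 fold change of 0.86 and a range from 0.47 for MCM7 to 1.14 for MCM3. MCM3, at chr6:52128807-52149679 on the minus strand, was at 76.9, 76.3 and 92.0 CPM with CTRL sh, 157, 157 and 162 CPM with CPSF1 sh1 and 199, 199.7 and 204 CPM with CPSF1 sh2. MCM2 was at 152, 133 and 155 CPM with CTRL sh, 245, 225 and 249 CPM with CPSF1 sh1 and 293, 299.5 and 323 CPM with CPSF1 sh2. MCM4 was at 65.5, 66.9 and 74.6 CPM with CTRL sh, 121, 116 and 126 CPM with CPSF1 sh1 and 148, 142 and 153 CPM with CPSF1 sh2. In each of these 3 subunits CPSF1 sh1 lay between CTRL sh and CPSF1 sh2 with no overlap. MCM6 was at 76.4, 81.0 and 83.2 CPM with CTRL sh, 116, 116 and 125 CPM with CPSF1 sh1 and 145, 146 and 150.2 CPM with CPSF1 sh2. MCM5 was at 39.6, 35.5 and 40.3 CPM with CTRL sh, 63.0, 56.8 and 62.3 CPM with CPSF1 sh1 and 74.8, 75.0 and 77.7 CPM with CPSF1 sh2. Both showed the same order of the 3 groups.

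Of the 9 origin licensing genes, 7 rose in LNCaP95 cells, led by CDC6 (log2 fold change 0.90 ± 0.10) and CDT1 (0.78 ± 0.09), which act together to load the helicase. ORC1 changed by 0.52 ± 0.09 and GMNN by 0.35 ± 0.06, while ORC3 (-0.08 ± 0.06) and ORC4 (-0.05 ± 0.07) were not called. Helicase activation genes rose in 5 of 6 cases, with GINS3 at 0.97 ± 0.13 and MCM10 at 0.95 ± 0.11, and GINS4 was not called (0.24 ± 0.10, adjusted p = 0.0525). Of the 9 polymerase and primase genes 8 rose, from POLA1, the catalytic subunit of polymerase alpha (0.84 ± 0.11), and POLE2 (0.81 ± 0.11) down to the catalytic subunits POLE (0.33 ± 0.06) and POLD1 (0.26 ± 0.07). Of the exon bases of POLD1, 10.5% are shared with another gene on the same strand, so its counts are less certain. The shares are smaller for FEN1 (1.98%), PRIM1 (1.82%) and CHAF1B (1.74%). The 6 genes of fork protection, chromatin assembly and licensing control with a row all rose, among them DTL, which marks CDT1 for destruction (0.64 ± 0.09), and the histone chaperones ASF1B (0.61 ± 0.07), CHAF1A (0.56 ± 0.08) and CHAF1B (0.60 ± 0.07).

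The clamp, clamp loader, RPA and Okazaki fragment genes were divided in LNCaP95 cells, with 5 of 11 higher, 1 lower and a median log2 fold change of 0.11. PCNA was at 103, 114 and 115 CPM with CTRL sh, 164, 164 and 172 CPM with CPSF1 sh1 and 201, 197 and 212 CPM with CPSF1 sh2, a change of 0.74 ± 0.09. FEN1, the flap endonuclease, changed by 0.63 ± 0.08, and RFC2 by 0.47 ± 0.06. RFC3, RFC4 and RFC5, the other small subunits of the clamp loader, were not called, with log2 fold changes from -0.03 to 0.06. RPA3, the smallest RPA subunit, was at 76.5, 75.5 and 77.6 CPM with CTRL sh, 61.4, 66.1 and 64.8 CPM with CPSF1 sh1 and 61.0, 61.4 and 63.4 CPM with CPSF1 sh2, and fell by 0.28 on the log2 scale (SE 0.05, adjusted p = 0.000154). The RPA1 subunit, by contrast, rose by 0.27 ± 0.05.

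The 3 genes of deoxynucleotide synthesis split in LNCaP95 cells between the subunits of ribonucleotide reductase. TYMS, thymidylate synthase, was at 129.7, 128 and 133 CPM with CTRL sh, 180.5, 172 and 189.6 CPM with CPSF1 sh1 and 204, 202 and 212 CPM with CPSF1 sh2. RRM2, the small subunit, was at 133, 131 and 139.9 CPM with CTRL sh, 168, 167 and 196 CPM with CPSF1 sh1 and 207, 198 and 196 CPM with CPSF1 sh2. Both rose, by 0.57 ± 0.06 and 0.48 ± 0.07. RRM1, the large subunit, at chr11:4115937-4160106 on the plus strand, was at 241, 241 and 244 CPM with CTRL sh, 219, 216 and 229.8 CPM with CPSF1 sh1 and 220.4, 218 and 235 CPM with CPSF1 sh2. It fell by 0.12 on the log2 scale (SE 0.04, adjusted p = 0.0205), with no overlap between CTRL sh and CPSF1 sh.

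In LNCaP cells the members were divided and the changes smaller. Of 55 members, 21 were higher, 7 lower and 27 not called, where 31.1% of all 11096 genes tested were called higher and 31.0% lower. As shares, 38.2% of the members were higher and 12.7% lower. The higher share was thus not far above that of all genes, and the lower share was below it. The median log2 fold change was 0.09, and it ran from -0.35 to 0.66. Without CTRL sh replicate 3 the count of lower members was 4. In 18 of the 55 members the CPSF1 sh libraries all lay above the CTRL sh libraries, not far above the share of all genes (27.9%). The higher members included CCNE1, CCNE2 and E2F1 (3 of 5 in the cyclin E and E2F group), 4 of 9 licensing genes and members of other groups, such as POLA1 (0.40 ± 0.06), FEN1 (0.41 ± 0.05) and RPA2 (0.43 ± 0.05).

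ORC5, at chr7:103766788-103848495 on the minus strand, showed the largest rise in LNCaP cells, from 56.4, 49.99 and 52.0 CPM with CTRL sh to 85.1, 89.4 and 85.0 CPM with CPSF1 sh1 and 78.8, 79.7 and 82.3 CPM with CPSF1 sh2. The log2 fold change was 0.66 ± 0.05 (adjusted p = 9.28e-08). The other core origin recognition genes moved less: ORC1 by 0.27 ± 0.08, ORC2 by 0.28 ± 0.05, ORC3 by -0.07 ± 0.08 and ORC4 by 0.02 ± 0.06. CLSPN was at 24.1, 23.7 and 26.1 CPM with CTRL sh, 30.8, 32.9 and 35.6 CPM with CPSF1 sh1 and 38.1, 36.9 and 41.3 CPM with CPSF1 sh2, a change of 0.55 ± 0.08. CCNE1 was at 22.8, 22.9 and 25.0 CPM with CTRL sh, 30.4, 30.4 and 27.4 CPM with CPSF1 sh1 and 35.0, 35.1 and 36.0 CPM with CPSF1 sh2, a change of 0.47 ± 0.09. For ORC5, CLSPN and CCNE1 alike, each CPSF1 sh library exceeded each CTRL sh library.

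The largest falls in LNCaP cells were those of RFC4, RFC3 and POLD3, 2 clamp loader subunits and a polymerase delta subunit. RFC4 was at 56.6, 52.5 and 52.97 CPM with CTRL sh, 39.7, 39.8 and 46.2 CPM with CPSF1 sh1 and 44.5, 43.98 and 40.1 CPM with CPSF1 sh2, a change of -0.35 ± 0.06 (adjusted p = 0.00013). RFC3 was at 59.8, 56.2 and 59.2 CPM with CTRL sh, 39.2, 45.9 and 47.6 CPM with CPSF1 sh1 and 48.4, 46.0 and 48.6 CPM with CPSF1 sh2, a change of -0.34 ± 0.06. POLD3 was at 42.4, 44.2 and 43.2 CPM with CTRL sh, 29.8, 31.8 and 33.9 CPM with CPSF1 sh1 and 36.4, 34.7 and 38.0 CPM with CPSF1 sh2, a change of -0.34 ± 0.07. In each of the 3 genes all CPSF1 sh libraries lay below the CTRL sh libraries, while the 2 hairpins overlapped in RFC4 and RFC3, and each fell against the direction of RFC2 (0.32 ± 0.05), POLD2 (0.17 ± 0.04) and POLA1. RRM1 also fell, from 231, 217 and 226 CPM with CTRL sh to 196, 189.5 and 199.8 CPM with CPSF1 sh1 and 213, 205 and 200.4 CPM with CPSF1 sh2. Within the MCM2-7 helicase, MCM4 (0.17 ± 0.05) and MCM7 (0.15 ± 0.06) were called higher. The log2 fold changes of the other subunits ran from -0.11 for MCM3 to 0.14 for MCM2 without passing this test, which pools the hairpins. With the hairpins as separate groups and their effects averaged, MCM2 (adjusted p = 0.000567) and MCM6 (0.00638) were higher and MCM3 (0.00387) lower by the edgeR quasi-likelihood test. The remaining members called higher in LNCaP cells were CDC6, MCM10, GINS3, PRIM2, PCNA, TYMS, CCNE2 and ASF1B, from 0.14 for PCNA to 0.39 for CDC6, and the remaining lower ones were GINS2, PRIM1 and DTL.

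In 22Rv1 cells, which had the highest levels of most members without knockdown, the members fell more often than they rose. Of 55 members, 15 were lower, 3 higher and 37 not called, where 14.3% of all 11728 genes tested were called lower and 12.7% higher. The median log2 fold change was -0.08. In 14 members the CPSF1 sh libraries all lay below the CTRL sh libraries, against 15.2% of all genes. The falls came from each role group, from 1 of 9 polymerase and primase genes to 2 of 3 nucleotide synthesis genes.

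MCM5 fell most in 22Rv1 cells, from 249, 245 and 232 CPM with CTRL sh to 178, 185 and 201 CPM with CPSF1 sh1 and 172, 176 and 174 CPM with CPSF1 sh2 (log2 fold change -0.42 ± 0.05, adjusted p = 7.96e-05). Among the other subunits of the same helicase, MCM3 changed by -0.13 ± 0.04 and was called, while MCM2 (0.04 ± 0.03), MCM4 (0.03 ± 0.04), MCM6 (-0.07 ± 0.05) and MCM7 (-0.03 ± 0.04) were not. GINS2, a subunit of the GINS complex, was at 79.9, 83.5 and 89.0 CPM with CTRL sh, 69.2, 64.7 and 70.1 CPM with CPSF1 sh1 and 64.3, 58.5 and 58.8 CPM with CPSF1 sh2, a change of -0.39 ± 0.06. RRM2 was at 289.7, 298 and 302 CPM with CTRL sh, 249.7, 247 and 239.8 CPM with CPSF1 sh1 and 213, 219 and 215 CPM with CPSF1 sh2, a change of -0.36 ± 0.06. RRM1 followed, at 358, 368 and 357 CPM with CTRL sh, 314, 305 and 299 CPM with CPSF1 sh1 and 272, 271 and 277 CPM with CPSF1 sh2. In both subunits of ribonucleotide reductase the 3 groups were separate, with CPSF1 sh2 lowest. The remaining members called lower in 22Rv1 cells were ORC3, CDT1, GMNN, GINS3, PRIM1, RFC3, RFC5, E2F2, CHAF1B and ASF1B, from -0.33 for RFC3 to -0.15 for PRIM1.

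The 3 rises in 22Rv1 cells were small. E2F3 was at 54.6, 56.8 and 54.1 CPM with CTRL sh, 69.0, 64.7 and 56.9 CPM with CPSF1 sh1 and 71.7, 72.8 and 70.3 CPM with CPSF1 sh2, a change of 0.29 ± 0.07 (adjusted p = 0.00798), whereas E2F2 fell by 0.24 (SE 0.05). ORC5 was at 59.1, 59.4 and 58.7 CPM with CTRL sh, 67.6, 62.0 and 67.8 CPM with CPSF1 sh1 and 63.6, 64.6 and 68.0 CPM with CPSF1 sh2, a change of 0.15 ± 0.05 (adjusted p = 0.0378). RPA1 was at 227, 224 and 225 CPM with CTRL sh, 247, 252 and 239 CPM with CPSF1 sh1 and 244, 239 and 240.2 CPM with CPSF1 sh2, a change of 0.11 ± 0.04 (adjusted p = 0.0367). Many of the calls in 22Rv1 cells depended on single libraries. Without CPSF1 sh1 replicate 3, the library that stood apart, 22 members were lower and 3 higher. In turn, 1, 1 and 1 members were called higher, and 12, 9 and 8 lower, without CTRL sh replicate 1, 2 and 3. Without CPSF1 sh2 replicate 3 the count of members called higher was also 1. Among the 3 rises, E2F3 alone kept its call in each of 17 other settings of scale, filter, tool, block, hairpin grouping and left-out library. Of the members called lower, 8 kept their call in each of these settings.

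**Figure D2:**
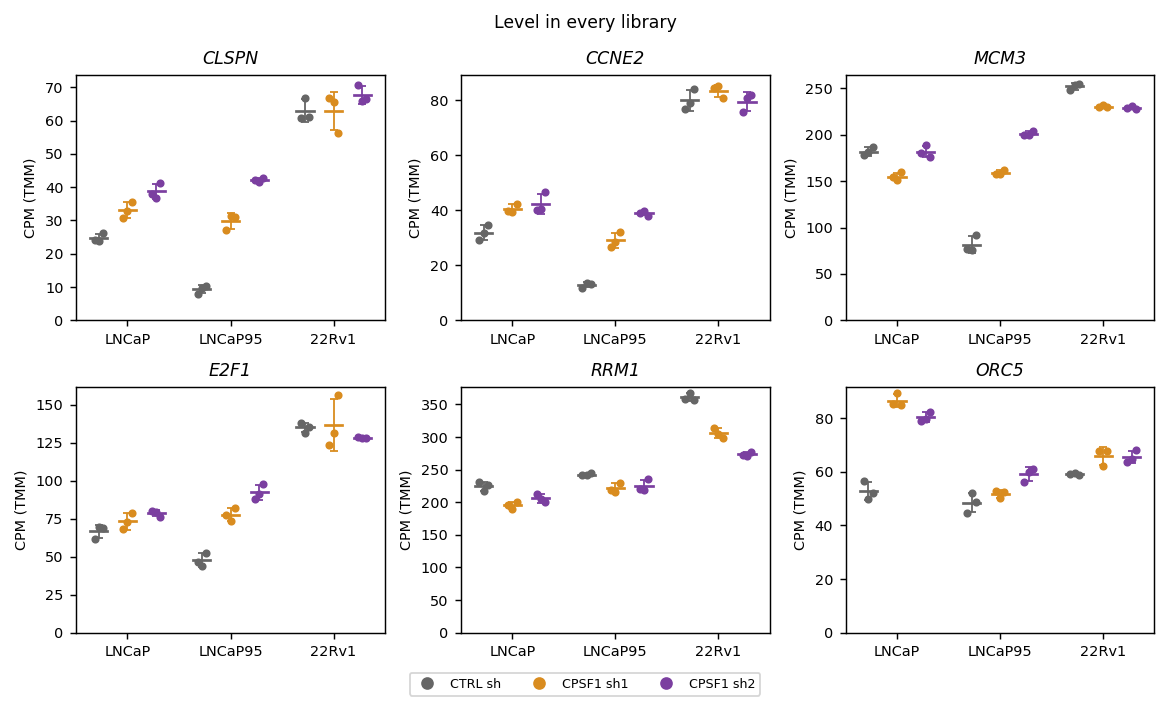
Level in CPM of 6 members in each of the 27 libraries (points), with the mean and SD of each group of 3 (bars), for CTRL sh (grey), CPSF1 sh1 (orange) and CPSF1 sh2 (purple). CLSPN, CCNE2, MCM3 and E2F1 step upward from CTRL sh to CPSF1 sh2 in LNCaP95 cells, RRM1 lies lower with CPSF1 sh in each line, and ORC5 rises most in LNCaP cells, where CPSF1 sh1 is at 85.0 to 89.4 CPM.

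ORC5 was called higher and RRM1 lower in all 3 lines, and no other member was called in 1 direction throughout. In LNCaP95 cells ORC5 was at 44.8, 51.9 and 48.7 CPM with CTRL sh, 52.7, 50.03 and 52.5 CPM with CPSF1 sh1 and 56.05, 60.0 and 60.9 CPM with CPSF1 sh2, so that the groups overlapped there (log2 fold change 0.19 ± 0.07, adjusted p = 0.0371). This call was lost in LNCaP95 cells without CTRL sh replicate 1 (adjusted p = 0.19), without CTRL sh replicate 3 and without each CPSF1 sh2 library (adjusted p from 0.0601 to 0.0845), and in 22Rv1 cells without any CTRL sh library, CPSF1 sh1 replicate 1 or CPSF1 sh2 replicate 2 or 3 (adjusted p from 0.0532 to 0.116). It was also lost without a filter on low counts in LNCaP95 (adjusted p = 0.113) and 22Rv1 cells (adjusted p = 0.0702), and with the filterByExpr filter of edgeR in LNCaP95 cells (adjusted p = 0.0874). The call of RRM1 in LNCaP95 cells was lost without CTRL sh replicate 3 (adjusted p = 0.0744) and with library size alone as the scale (adjusted p = 0.481). The most frequent pattern over LNCaP, LNCaP95 and 22Rv1 cells was higher in the first pair and not called in the last, for 16 members. A further 12 members were called higher in LNCaP95 cells alone, 11 were higher in LNCaP95 and lower in 22Rv1 cells (7 of them not called in LNCaP cells), and 3 were not called in any line.

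Both hairpins were compared with the same 3 CTRL sh libraries of a line, so their values are set side by side. In LNCaP95 cells CPSF1 sh1 had 45 members higher and 2 lower, beside 33.1% and 33.3% of all genes, and CPSF1 sh2 had 46 higher and 2 lower, beside 36.5% and 36.9% (1 lower without CTRL sh replicate 3 or CPSF1 sh2 replicate 1 or 2). Between the hairpins themselves, 34 members were higher and 1, RFC4, lower with CPSF1 sh2 than with CPSF1 sh1, beside 16.5% and 17.7% of all genes. The smallest adjusted p-values of this comparison were those of CLSPN (log2 difference 0.50 ± 0.07, adjusted p = 3.7e-05), MCM6 (0.31 ± 0.05) and MCM3 (0.34 ± 0.05). The level of CPSF1 itself did not differ detectably between the hairpins in LNCaP95 cells (log2 difference 0.00 ± 0.08, adjusted p = 0.998).

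In LNCaP cells CPSF1 sh1 had 17 members higher and 14 lower, beside 31.2% and 31.3% of all genes, and CPSF1 sh2 had 30 higher and 4 lower, beside 32.1% and 32.5%. With CPSF1 sh1 the share of higher members was thus near that of all genes. Between the hairpins 24 members differed, each of them higher with CPSF1 sh2, where 6.53% of all genes were higher and 8.24% lower, and all 6 MCM2-7 genes were among the 24. MCM2 was at 205, 209 and 214 CPM with CTRL sh, 207, 217 and 215 CPM with CPSF1 sh1 and 246, 256 and 246 CPM with CPSF1 sh2, so that CPSF1 sh2 stood apart. MCM3 was at 178, 181 and 187 CPM with CTRL sh, 154, 151 and 159 CPM with CPSF1 sh1 and 180.3, 188 and 176 CPM with CPSF1 sh2, so that here CPSF1 sh1 stood apart, on the low side. TYMS was at 148, 143 and 150.2 CPM with CTRL sh, 157, 155 and 166 CPM with CPSF1 sh1 and 191, 185 and 183 CPM with CPSF1 sh2. The count of 24 fell to 14 without CPSF1 sh1 replicate 1 and to 12 without CPSF1 sh1 replicate 2. In 22Rv1 cells CPSF1 sh1 had 2 members higher and 10 lower, beside 8.79% and 11.1% of all genes, and CPSF1 sh2 had 3 higher and 22 lower, beside 19.1% and 20.9%. There 9 members differed, each of them lower with CPSF1 sh2 than with CPSF1 sh1, where 5.85% of all genes were lower and 5.47% higher, with the smallest adjusted p-values for RRM2 (log2 difference -0.19 ± 0.04, adjusted p = 0.00688), FEN1 (-0.18 ± 0.04) and ASF1B (-0.20 ± 0.04). These 9 members came to 5 without CPSF1 sh1 replicate 2, and to 2, 4 and 5 without CPSF1 sh2 replicate 1, 2 and 3. Leaving out any 1 library gave 0 to 2 members higher with CPSF1 sh1 (0 without each CTRL sh library) and 1 to 5 with CPSF1 sh2 (5 without CPSF1 sh1 replicate 3) in 22Rv1 cells. Without that replicate 14 members were lower with CPSF1 sh1 and 26 with CPSF1 sh2.

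Whether the knockdown acted differently on the members in different lines was tested as the difference of the effects in 1 fit of all 27 libraries. The effect, the log2 fold change of CPSF1 sh against CTRL sh, was higher in LNCaP95 than in LNCaP cells for 44 members and lower for 3, beside 31.2% and 28.5% of all 10317 genes tested, with a median difference of 0.43 on the log2 scale. MCM3 (1.27 ± 0.06), MCM4 (0.80 ± 0.05) and MCM2 (0.76 ± 0.06) had the smallest adjusted p-values, from 3.74e-18 to 1.62e-12. In LNCaP cells MCM4 was at 208, 200.1 and 211 CPM with CTRL sh, 215, 217 and 231 CPM with CPSF1 sh1 and 247, 241 and 247 CPM with CPSF1 sh2, a much narrower range than in LNCaP95 cells. The 3 members with a lower effect in LNCaP95 cells were ORC5 (-0.45 ± 0.07), RPA2 (-0.32 ± 0.05) and RPA3 (-0.18 ± 0.08). RPA2, the middle RPA subunit, was at 66.5, 63.9 and 66.1 CPM with CTRL sh, 87.2, 80.8 and 85.2 CPM with CPSF1 sh1 and 94.3, 90.8 and 90.1 CPM with CPSF1 sh2 in LNCaP cells.

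Against LNCaP95, the effect in 22Rv1 cells was lower for 51 members and higher for 1, RPA3, beside 30.9% and 30.8% of all genes, with a median difference of -0.53. CLSPN (-1.88 ± 0.11), MCM3 (-1.27 ± 0.05) and MCM5 (-1.24 ± 0.07) led this comparison. CLSPN was at 60.6, 66.9 and 61.2 CPM with CTRL sh, 66.8, 65.7 and 56.3 CPM with CPSF1 sh1 and 70.7, 65.7 and 66.4 CPM with CPSF1 sh2 in the 22Rv1 libraries, where the groups overlapped. MCM3 was at 248, 254 and 254 CPM with CTRL sh, 229.7, 232 and 229.8 CPM with CPSF1 sh1 and 229, 230.5 and 228 CPM with CPSF1 sh2 in the 22Rv1 libraries, slightly lower with either hairpin.

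Against LNCaP, the effect in 22Rv1 cells was lower for 29 members and higher for 4, beside 25.0% and 25.3% of all genes. FEN1 differed by -0.52 ± 0.05, RPA2 by -0.47 ± 0.06 and ASF1B by -0.45 ± 0.05. FEN1 was at 99.9, 105 and 106 CPM with CTRL sh, 135, 125 and 137 CPM with CPSF1 sh1 and 142, 143 and 147 CPM with CPSF1 sh2 in LNCaP cells, and at 251, 239 and 244 CPM with CTRL sh, 235, 236 and 247 CPM with CPSF1 sh1 and 209, 213 and 213 CPM with CPSF1 sh2 in the 22Rv1 libraries. The CPSF1 sh libraries thus lay above CTRL sh in LNCaP cells, and in 22Rv1 cells those of CPSF1 sh2 lay below it. RPA2 was at 105, 102 and 101 CPM with CTRL sh, 102, 93.7 and 107 CPM with CPSF1 sh1 and 95.3, 95.0 and 97.5 CPM with CPSF1 sh2 in the 22Rv1 libraries. ASF1B, a histone chaperone, was at 148, 143 and 149 CPM with CTRL sh, 131, 129 and 134 CPM with CPSF1 sh1 and 115, 111 and 116 CPM with CPSF1 sh2 in the 22Rv1 libraries, so that its 3 groups were separate. The 4 members with a higher effect in 22Rv1 cells were POLD3, RFC4, E2F3 and DTL. Across the 55 members, the log2 fold changes of LNCaP and LNCaP95 cells had a Pearson correlation of 0.46 (Spearman 0.43), those of LNCaP and 22Rv1 cells 0.43 (0.46) and those of LNCaP95 and 22Rv1 cells 0.19 (0.13), a description over genes that share the libraries of each line.

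Members with an E2F word in the promoter window had a median log2 fold change of 0.70 in LNCaP95 cells and those without one 0.29, with 24 members on each side and ranges of -0.08 to 1.94 and -0.12 to 1.20 that overlapped widely. UHRF1, which holds a word but has no RNA values, was left out of this split. The medians were 0.10 and 0.10 in LNCaP and -0.08 and -0.10 in 22Rv1 cells. These values are given as a description, with no test.

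Genes around the members in the cell cycle were taken from lists of named genes, also chosen with earlier results of these data known. Of 30 other replication genes, 16 were higher and 7 lower in LNCaP95 cells, with DSCC1, which loads PCNA for cohesion (1.07 ± 0.08), and TIPIN, the partner of TIMELESS (0.92 ± 0.10), rising most and the mitotic inhibitor kinase WEE1 (-1.59 ± 0.06) and POLD4 (-0.76 ± 0.09) falling most. In LNCaP cells 11 of the 30 were higher and 5 lower, and in 22Rv1 cells 9 were lower. As shares, 53.3% of the 30 were higher and 23.3% lower in LNCaP95, 36.7% and 16.7% in LNCaP and 30.0% lower in 22Rv1 cells. Of all genes, 33.2% were called higher and 33.7% lower in LNCaP95 and 31.1% and 31.0% in LNCaP cells. In 22Rv1 cells 12.7% of all genes were higher and 14.3% lower. The LNCaP share of higher genes among the 30 was thus near that of all genes. Of the other G1/S control genes tested, 16 of 27 were higher and 5 lower in LNCaP95 cells (59.3% and 18.5%). The inhibitor CDKN1B (p27) fell there from 261 to 104 CPM (log2 fold change -1.33 ± 0.09) and CDKN1C (p57) from 33.2 to 10.4 CPM (-1.63 ± 0.28), while CDK6 rose from 5.75 to 17.5 CPM (1.59 ± 0.14) and CCND3 from 31.5 to 65.4 CPM (1.05 ± 0.10). In LNCaP cells 8 of 25 such genes were higher and 4 lower, and in 22Rv1 cells 2 of 27 were higher and 5 lower. The LNCaP share of higher genes, 32.0%, was near that of all genes there (31.1%), as was the 22Rv1 share of lower genes, 18.5%, beside 14.3%.

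The G2/M genes, which act after S phase, went the other way from the members in LNCaP95 cells, with 27 of 30 lower, 1 higher and a median log2 fold change of -0.44. CDC20, the activator of the anaphase-promoting complex, fell by 1.20 (SE 0.07) and CCNB2, a B-type cyclin, by 0.93 (SE 0.07), while the transcription factor FOXM1 rose by 0.36 (SE 0.08). In LNCaP cells 11 G2/M genes were lower and 6 higher, and in 22Rv1 cells 4 were lower and 1 higher. The shares that were lower, 36.7% and 13.3%, were near those of all genes (31.0% and 14.3%), whereas in LNCaP95 cells 33.7% of all genes were lower. The p53 target genes had another pattern. In LNCaP cells 15 of 20 were higher and 2 lower, beside 31.1% and 31.0% of all genes. In LNCaP95 cells 3 were higher and 8 lower, beside 33.2% and 33.7%, so the lower share (40.0%) was near that of all genes. In 22Rv1 cells 12 were higher and 1 lower, beside 12.7% and 14.3%. The median log2 fold changes were 0.35, 0.01 and 0.37 in LNCaP, LNCaP95 and 22Rv1 cells. CDKN1A (p21), which inhibits the kinases of cyclin E, rose from 210.4 to 608 CPM in LNCaP (log2 fold change 1.53 ± 0.06) and from 104 to 249 CPM in 22Rv1 cells (1.26 ± 0.15), and in LNCaP95 cells from 308 to 360 CPM (0.23 ± 0.06). The knockdown effect on CDKN1A was lower in LNCaP95 than in LNCaP cells by 1.28 on the log2 scale (-1.28 ± 0.07, adjusted p = 7.75e-16). The part of these genes in the changes of the members was not tested.

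**Figure D3:**
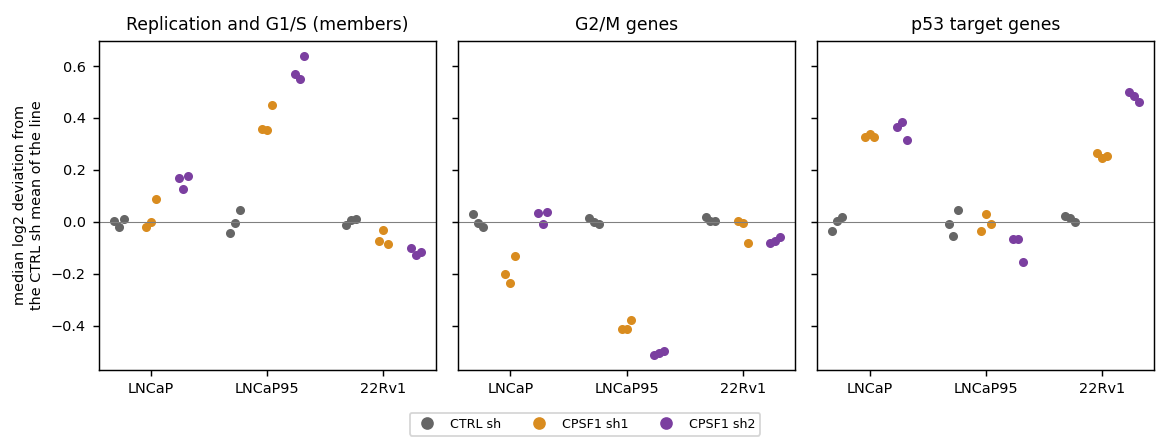
Median log2 deviation of a gene list from the CTRL sh mean of the same line in each library, for the members, the G2/M genes and the p53 target genes, with CTRL sh in grey, CPSF1 sh1 in orange and CPSF1 sh2 in purple. In LNCaP95 cells the 6 CPSF1 sh libraries lie at 0.36 to 0.64 for the members and at -0.51 to -0.38 for the G2/M genes, and for the p53 target genes at -0.15 to 0.03.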

How the data were processed

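Poly(A) RNA of the 27 libraries was sequenced as stranded libraries. The authors aligned reads to GRCh37 with HISAT2 (version 2.1.0 in the submitters' processing notes) and counted them per gene with Subread (2.0.3), and the deposited values are raw counts per gene, with no normalization, for protein-coding genes. Groups and replicate numbers were taken from the labels. Members and lists were chosen with earlier results of these data known. Genes above 2 CPM (counts per 1000000) in each of the 9 libraries of a line were scaled by TMM and tested with the edgeR quasi-likelihood F-test (edgeR 4.0.16, R 4.3.3), 6 CPSF1 sh against 3 CTRL sh libraries. Each hairpin was tested in a fit of 3 groups, and line differences in a fit of 27 libraries. Benjamini-Hochberg adjustment covered all genes tested in a comparison, and calls were made at an adjusted p of 0.05. They measure only the spread between these libraries.

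Values in every library are given for members called alike in all lines, the 3 largest rises and falls of a line with both hairpins alike in sign, and the 3 smallest adjusted p-values of each line pair and hairpin comparison, with levels for the 3 highest and 3 lowest members; E2F1 was added after its values were seen. Of other lists at most 2 genes up and 2 down are named in a line, and CDKN1A in LNCaP95 cells was added. Alternatives were library size alone as the scale, DESeq2 (1.42.0), other filters, a 2-fold threshold, a replicate block and leaving out each library. A fit with the hairpins as separate groups and their effects averaged was also run. Same-numbered libraries did not meet the criterion for pairing. The edgeR script was tested on simulated counts. Counts were 8515624 to 15904518 per library, with a median of 11058723. Promoter sequences came from RefSeq (GRCh38.p14), with a window for 49 members. Some luminal markers are not reported here and were left out of the sums.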

Additional observations from a re-analysis of the deposited data

Results flagged for a closer look

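The knockdown effect differed between lines by the interaction test of edgeR's quasi-likelihood fit (Benjamini-Hochberg adjusted) for 47 members (LNCaP95 against LNCaP), 33 members (22Rv1 against LNCaP) and 52 members (22Rv1 against LNCaP95). Of all 10317 genes tested, the effect was higher for 31.2% and lower for 28.5% in the first of these comparisons. In the second 25.3% were higher and 25.0% lower, and in the third 30.8% and 30.9%. Such differences were thus common among all genes, and the 33 members of the second comparison were not far above that rate in number. In direction they were uneven, with a lower effect for 29 and a higher one for 4, unlike all genes. The members with the smallest adjusted p-values were, for LNCaP95 minus LNCaP, MCM3 (1.27 on the log2 scale), MCM4 (0.804) and MCM2 (0.764). For 22Rv1 minus LNCaP they were FEN1 (-0.52), RPA2 (-0.472) and ASF1B (-0.446), and for 22Rv1 minus LNCaP95 MCM3 (-1.27), MCM5 (-1.24) and CLSPN (-1.88). The knockdown of CPSF1 itself was also unequal, by -0.22 ± 0.10 on the log2 scale for LNCaP95 minus LNCaP (adjusted p = 0.0476) and 0.39 ± 0.10 for 22Rv1 minus LNCaP95 (adjusted p = 0.000823), and its part in these differences was not tested.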

How the results depend on the processing

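No member called in the edgeR test changed sign in any of the 17 other settings of a line, and the calls that held in each of them were 21 of 28 for LNCaP, 40 of 46 for LNCaP95 and 9 of 18 for 22Rv1. Past a 2-fold threshold LNCaP had 0 members higher and 0 lower, LNCaP95 had 5 and 0, and 22Rv1 had 0 and 0. With library size alone 1 member was lower in LNCaP95 cells, 1 with CPSF1 sh1 and 1 with CPSF1 sh2. DESeq2 gave 15 members differing between hairpins in LNCaP cells, and 0 higher with CPSF1 sh1 and 1 with CPSF1 sh2 in 22Rv1 cells. Without an expression filter 1 member was higher in 22Rv1 cells and 1 with CPSF1 sh1. With the hairpins as separate groups and their effects averaged, LNCaP had 27 members higher and 10 lower. In this setting LNCaP95 had 47 higher and 2 lower, and 22Rv1 had 3 higher and 21 lower. The cause of these changes was not tested.

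With the replicate number as a block, LNCaP had 20 members higher and 7 lower, LNCaP95 had 44 and 2, and 22Rv1 had 1 and 11, with 1 higher for CPSF1 sh2 in 22Rv1 cells, and the effect differed between lines for 47, 33 and 52 members. The block ended the calls of MCM7 in LNCaP, ORC5 in LNCaP95 (adjusted p = 0.0570) and ORC5 (0.0648), RPA1, CDT1, GMNN, GINS3 and PRIM1 in 22Rv1 cells. The numbers were not taken to pair the libraries, since not every pair correlated: 27 correlations of same-numbered deviations ran from -0.246 to 0.294, with 7 over 0.1.

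Leaving out 1 library at a time gave these lowest and highest counts. In LNCaP cells 19 to 25 members were higher and 4 to 9 lower, 13 to 18 and 11 to 16 with CPSF1 sh1, 27 to 30 and 4 to 6 with CPSF1 sh2, and 12 to 24 differed between hairpins. In LNCaP95 cells 41 to 45 were higher and 1 to 2 lower, 39 to 44 and 2 to 2 with CPSF1 sh1, 45 to 46 and 1 to 2 with CPSF1 sh2, and 26 to 37 differed. In 22Rv1 cells 1 to 3 were higher and 8 to 22 lower, 0 to 2 and 7 to 14 with CPSF1 sh1, 1 to 5 and 19 to 26 with CPSF1 sh2, and 2 to 13 differed. The effect differed for 44 to 48, 28 to 34 and 48 to 52 members.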
